A study of Mus musculus with 12 samples.

Results

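The genes described here are the solute carrier (SLC) transporter genes of microglia, the resident macrophages of the brain. They were taken as every peak, in the count tables of Rpb2 and of H3K27Ac, whose assigned gene symbol starts with Slc and a family number, with Slc2a5 and Slc11a1 left out. This gave 296 genes of 48 SLC families. They held 427 of 26706 Rpb2 peaks and 962 of 55862 H3K27Ac peaks, which is 172 of 10206 genes with an Rpb2 peak and 289 of 16945 genes with an H3K27Ac peak. Peaks of both marks were found for 165 genes, of H3K27Ac alone for 124 and of Rpb2 alone for 7. The symbols cover 7 genes that are not carriers, among them the scaffold genes Slc9a3r1 and Slc9a3r2 and the opposite-strand gene Slc7a6os.

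Chromatin immunoprecipitation with sequencing (ChIP-seq) for Rpb2, a core subunit of RNA polymerase II, and for H3K27Ac, the histone acetylation of active promoters and enhancers, had been done on microglia sorted from the brain. Wild-type (WT) mice were compared with Cx3cr1-KO mice, in which both alleles of the fractalkine receptor gene carry an eGFP knock-in. All mice were 2 mo old, on a C57BL/6J background, and littermates from Cx3cr1+/eGFP parents. Each library was a pool of 3 mice of the same labelled sex, with 1 female and 1 male pool per genotype and mark, so that every genotype comparison has 2 pools against 2. The knock-in is constitutive, so the receptor is missing in every cell that would carry it, not in microglia alone, and pooling hides the spread between animals. The 4 input samples of the 12 samples were not used.

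SLC proteins move amino acids, sugars, nucleosides, metals, inorganic ions, vitamins and drugs across the plasma membrane and the membranes of mitochondria, lysosomes and the Golgi. Families are numbered by sequence, and members of a family usually share a kind of substrate. Macrophages depend on a lysosomal set that exports peptides, nucleosides and amino acids from digested material, and on plasma membrane carriers for glucose, lactate, glutamate, zinc and iron. Rpb2 at a start site reports polymerase that is bound there, whether paused or moving, and does not measure transcript or protein.

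The libraries held 11662185 to 44332626 reads for Rpb2 and 10395804 to 21134403 reads for H3K27Ac. Of these, 11.2 to 15.1% lay in peaks for Rpb2. For H3K27Ac the WT female library stood apart with 15.9% of its reads in peaks, against 61.1 to 65.3% in the other libraries. The Rpb2 library labelled WT female held Y-linked reads at 11.7 CPM, here counts scaled to the total reads of the library. The male pools had 15.7 and 16.1 and the KO female pool 0, and the WT female library is called by its label throughout. All other CPM values are scaled to the reads in the tested peaks, with TMM factors between libraries, and are not on the scale of the Y-linked values. Promoter peaks of Rpb2 were found for 7 of 7 microglia marker genes, with a summed level of 2472 to 2523 CPM per library, and H3K27Ac covered the start site of 5 of the 7. At the start site, as in the counts that follow, astrocyte and neuron markers had 0 of 5 each with either mark. H3K27Ac peaks farther away were assigned to Aqp4, Gja1, Snap25, Syt1 and Rbfox3. For oligodendrocyte markers, 1 of 5 had Rpb2 (29.2 to 141 CPM) and 2 of 5 H3K27Ac. For endothelial markers, 1 of 5 had Rpb2 (32.8 to 65.1 CPM) and 1 of 5 H3K27Ac, and for peripheral myeloid markers 0 of 5 and 1 of 5, Mrc1. Its H3K27Ac level was 15.3 and 20.8 CPM in the WT pools against 8.97 and 4.01 in the KO pools (−1.47 on the log2 scale, edgeR adjusted p 0.779). Peaks of that marker list farther from a start site went both ways. Their log2 fold changes were 0.96 and −0.95 at Mrc1, 1.46 at Cd163, and −3.08 and 0.10 at Ccr2, among others. Of the Rpb2 peaks at the oligodendrocyte gene Mbp, that at the start site had a log2 fold change of −1.65 (adjusted p 0.431). Their part in the SLC values was not tested. The Rpb2 peak at the Cx3cr1 start site did not pass the test between genotypes (log2 fold change KO over WT −0.10, edgeR adjusted p 0.902). That peak lies outside the replaced coding part and does not check the labels.

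The promoters of the SLC genes on which the results below turn are shown first. Each is the 250 bases before the RefSeq start site (GRCm38.p6, the build of mm10), written 5′ to 3′ on the strand of the gene in lower case. Capitals mark letters that match a searched motif on either strand, here the GC box GGGCGG or the E-box CACGTG read by MiT/TFE and Myc proteins. Slc29a3 (chr10:60752783-60753032, minus strand), Slc3a2 (chr19:8713898-8714147, minus strand), Slc29a2 (chr19:5023756-5024005, plus strand) and Slc38a2 (chr15:96699729-96699978, minus strand) are among the promoters with the most Rpb2. Slc36a1 (chr11:55204090-55204339, plus strand) and Slc2a6 (chr2:27027999-27028248, minus strand) lie under peaks named in the genotype comparison.
Slc29a3: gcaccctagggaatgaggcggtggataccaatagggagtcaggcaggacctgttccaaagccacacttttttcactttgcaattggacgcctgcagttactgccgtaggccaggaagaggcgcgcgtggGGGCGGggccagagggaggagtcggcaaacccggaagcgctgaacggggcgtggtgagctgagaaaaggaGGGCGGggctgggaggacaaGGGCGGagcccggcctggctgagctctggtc
Slc3a2: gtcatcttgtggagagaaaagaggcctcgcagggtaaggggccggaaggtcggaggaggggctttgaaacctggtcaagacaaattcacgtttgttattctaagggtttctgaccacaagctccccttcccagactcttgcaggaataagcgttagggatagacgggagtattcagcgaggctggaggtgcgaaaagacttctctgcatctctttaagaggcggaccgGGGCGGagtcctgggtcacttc
Slc29a2: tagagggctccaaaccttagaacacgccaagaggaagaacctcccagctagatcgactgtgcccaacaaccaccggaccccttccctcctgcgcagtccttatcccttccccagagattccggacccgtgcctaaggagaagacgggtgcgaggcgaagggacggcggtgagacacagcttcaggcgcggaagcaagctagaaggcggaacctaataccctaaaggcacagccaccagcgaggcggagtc
Slc36a1: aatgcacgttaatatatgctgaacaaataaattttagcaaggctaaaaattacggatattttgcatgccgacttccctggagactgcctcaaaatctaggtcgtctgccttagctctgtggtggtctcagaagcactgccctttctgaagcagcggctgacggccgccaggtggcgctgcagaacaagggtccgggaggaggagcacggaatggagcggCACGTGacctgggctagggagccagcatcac
Slc38a2: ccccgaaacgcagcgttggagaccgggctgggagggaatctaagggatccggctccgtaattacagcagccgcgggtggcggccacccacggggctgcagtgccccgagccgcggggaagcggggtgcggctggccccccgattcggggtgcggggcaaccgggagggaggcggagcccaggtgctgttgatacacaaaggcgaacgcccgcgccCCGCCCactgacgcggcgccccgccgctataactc
Slc2a6: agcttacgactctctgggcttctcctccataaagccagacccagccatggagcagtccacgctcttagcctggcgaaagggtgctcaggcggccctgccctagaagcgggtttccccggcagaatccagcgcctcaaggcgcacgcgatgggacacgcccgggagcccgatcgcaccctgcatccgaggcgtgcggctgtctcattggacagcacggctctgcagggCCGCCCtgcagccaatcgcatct

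The Slc29a3 window held 3 GC boxes, the last at −31 to −26 from the start site, and Slc3a2, Slc38a2 and Slc2a6 held 1 each. Slc29a2 held none of the searched motifs. Slc36a1 held the E-box at −31 to −26. A RefSeq window was at hand for 237 of the 296 genes, and an Rpb2 promoter peak overlapped the window of 86 of them. Among those 86 windows the GC box was found in 80.2%, against 70.7% of the 5497 windows of all genes under an Rpb2 promoter peak, and the E-box in 17.4% against 11.7%. The metal response element, TGCACNC or TGCGCNC, was found in 43.02% against 38.4%, and TATAAA, the TATA box, in 4.65% against 5.97%. GAGGAAGT, the site of the macrophage factor PU.1, was found in 2.33% against 4.07%, TGATGNAA, read by ATF4 with C/EBP, in 2.33% against 1.86%, and the AP-1 site TGACTCA in 2.33% against 3.04%. The SLC windows had a median GC content of 64.8%, and all such windows 62%, and the part of base composition in the motif shares was not tested. A match of letters is a description and not evidence of binding.

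Which SLC genes carry polymerase in microglia was asked first. Levels are given per length, as CPM per kb of peak width with TMM-scaled library sizes, and each gene is given by 1 peak, that with the most reads on average among those no farther than 1000 bp from the start site. By this rule 133 of the 296 genes had an Rpb2 promoter peak, 156 had an H3K27Ac promoter peak, 114 had both and 121 had neither. The distance is that of the peak centre, so a wide H3K27Ac peak over a start site may not count. Of the 133 Rpb2 promoter peaks, 132 lay in an H3K27Ac peak. The median WT Rpb2 level over the 133 SLC promoters was 340 CPM per kb, against 307 over the 8350 promoters of all genes, and 13 SLC genes (9.77%) were in the upper 10% of all promoters. The members with the most Rpb2 were a monocarboxylate carrier, a zinc importer, lysosomal carriers of peptides and nucleosides, and carriers of amino acids. In the sentences below the 4 values are those of the WT female, WT male, KO female and KO male pools in that order. Where KO pools are said to lie above or under both WT pools, such gaps were common. They were found with KO higher in 21.7% and KO lower in 20.4% of all Rpb2 peaks near a start site. Of SLC peaks 17.2% and 19.5% had them, so a gap alone does not mark a genotype difference.

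**Figure D1:**
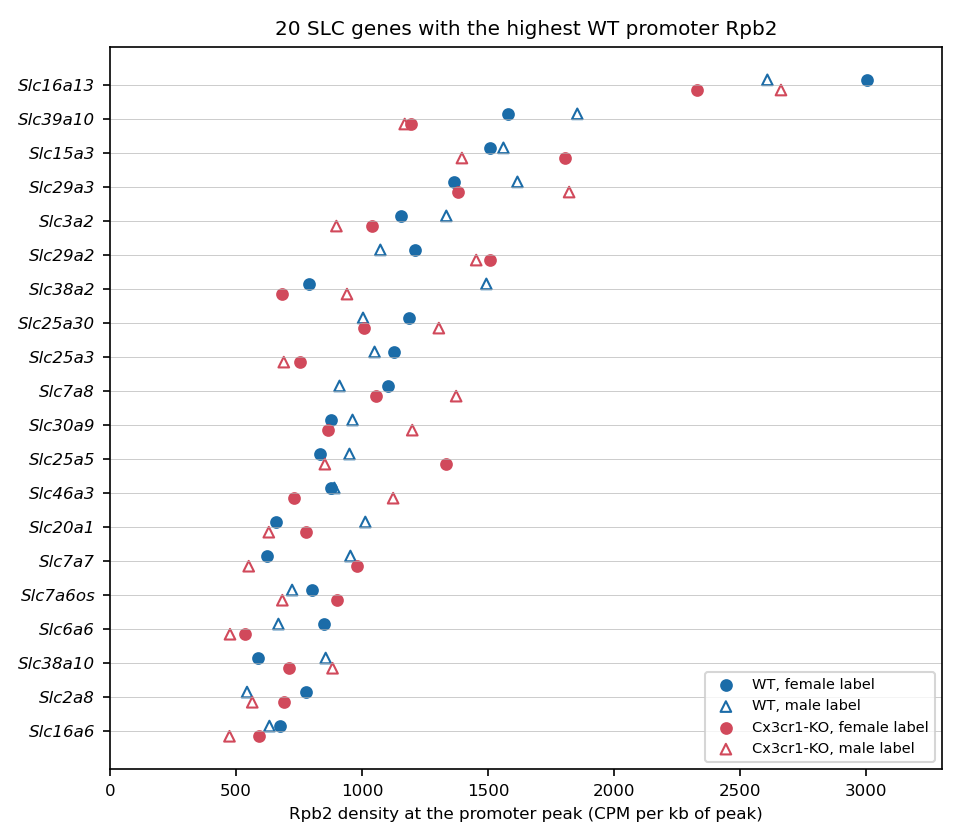
Rpb2 level at the promoter peak, in CPM per kb of peak width, of the leading SLC genes, with 1 point for each of the 4 pools. Slc16a13 sits apart at 2329 to 3002, and Slc38a2 has WT pools at 791 and 1493.

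Slc16a13, a proton-linked monocarboxylate carrier, had the highest Rpb2 level of the SLC promoters, at 3002, 2607, 2329 and 2661 CPM per kb. Its peak (chr11:70221161-70221383) lies just upstream of the gene and covers none of it, and the genotype ranges overlapped. Slc39a10, the zinc importer ZIP10, followed at 1578, 1854, 1196 and 1169 CPM per kb, with both KO pools under both WT pools. The lysosomal peptide and histidine carrier Slc15a3 had 1507, 1561, 1806 and 1396 CPM per kb. Its relative Slc15a4, which serves endosomal Toll-like receptor signalling, had 514, 734, 458 and 837. Slc29a3, the lysosomal nucleoside carrier ENT3, had 1363, 1616, 1379 and 1821 CPM per kb. Slc29a2, the plasma membrane nucleoside carrier ENT2, had 1212, 1073, 1508 and 1453, with both KO pools above both WT pools. For Slc15a3, Slc15a4 and Slc29a3 the genotypes overlapped.

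Among amino acid carriers, Slc3a2 encodes the heavy chain CD98, which pairs with light chains of the SLC7 family. It had 1156, 1334, 1039 and 898 CPM per kb of Rpb2, both KO pools under both WT pools (log2 fold change −0.36, SE 0.23). Its light chain Slc7a8 (LAT2) had 1103, 911, 1055 and 1373, and the light chain Slc7a5 (LAT1) had 517, 517, 431 and 519. The sodium-coupled glutamine carrier Slc38a2 had 791, 1493, 681 and 940, with overlapping genotypes and a wide gap between the WT pools. The taurine carrier Slc6a6 had 849, 668, 535 and 477, and the branched-chain amino acid carrier Slc43a2 had 565, 520, 773 and 700. Both genotypes stood apart in these latter genes, lower in KO for Slc6a6 and higher in KO for Slc43a2. The glutamate carrier Slc1a3 (GLAST), known best from astrocytes, had 316, 400, 357 and 260 CPM per kb, with overlapping genotypes. The neutral amino acid carrier Slc1a4 led its family, with 402, 587, 498 and 542. Slc1a2, the main astrocyte glutamate carrier, had no Rpb2 peak and 1 H3K27Ac peak. Slc7a11, the cystine and glutamate exchanger, had 3 Rpb2 peaks, none at the promoter, and 12 H3K27Ac peaks. Slc38a9, the lysosomal arginine sensor of the mTORC1 pathway, had 327, 278, 172 and 179 CPM per kb at its promoter, with both KO pools lower.

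Of the carriers of fuel, the glucose carrier Slc2a1 (GLUT1) had 520, 634, 636 and 395 CPM per kb, and Slc2a8 (GLUT8), which led its family, had 777, 544, 690 and 565. Slc2a3 (GLUT3) had no Rpb2 peak and 2 H3K27Ac peaks. The lactate carriers Slc16a1 (MCT1) and Slc16a3 (MCT4) had 548, 716, 590 and 483, and 291, 280, 380 and 261. The sugar phosphate exchanger Slc37a2 had 542, 480, 557 and 432. In each of these 5 genes with an Rpb2 peak the genotypes overlapped.

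Among metal carriers Slc39a10 was followed by Slc30a9, of the zinc transporter family ZnT, at 877, 962, 866 and 1199 CPM per kb. The iron exporter Slc40a1 (ferroportin) had 331, 735, 446 and 264, so its WT pools differed more than the genotypes did. Slc39a14, a zinc and iron importer, was low at 121, 129, 103 and 90.9. No peak of either mark was found under Slc25a37, the mitochondrial iron importer, in the rows used here. Of the mitochondrial carriers, the kidney mitochondrial carrier Slc25a30 had 1186, 1004, 1007 and 1305 CPM per kb. The phosphate carrier Slc25a3 had 1125, 1050, 755 and 690, and the ADP/ATP carrier Slc25a5 had 833, 950, 1333 and 853. KO pools were lower in Slc25a3 and overlapped WT in Slc25a30 and Slc25a5.

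Ion carriers came next in the order of roles. The sodium-proton exchangers Slc9a8 and Slc9a9 had 682, 525, 620 and 838, and 134, 143, 244 and 150 CPM per kb. The sodium-potassium-chloride cotransporter Slc12a2 (NKCC1) had 49.1, 146, 98.6 and 49.5. Slc9a9, an endosomal exchanger, had both KO pools above both WT pools, and Slc9a8 and Slc12a2 had overlapping genotypes. Slc10a3 had 395, 512, 593 and 280, with the start site of Ubl4a within 1000 bp. Slc22a17, the receptor of lipocalin 2, had 715, 569, 534 and 654. Slc35b2, which carries the sulfate donor PAPS into the Golgi, had 659, 623, 487 and 483, with both KO pools lower.

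Substrate classes were set by family number, so genes that are not carriers, such as Slc7a6os among amino acid carriers, are counted in them. By substrate class, 3 classes had an Rpb2 promoter peak for most of their RefSeq coding genes. These were nucleoside, nucleotide sugar and acetyl-CoA carriers with 22 of 36 (median level 289 CPM per kb), mitochondrial carriers with 27 of 47 (median 349) and metal carriers with 16 of 28 (median 297). Amino acid carriers had 19 of 67 but a median of 507. Inorganic ion carriers had 16 of 62 (median 366), sugar carriers 9 of 33 (median 234), and carriers of bile acids, organic ions and drugs 7 of 36 (median 263). Monocarboxylate, dicarboxylate and peptide carriers had 7 of 24, with a median of 632. The SLC6 family, which holds the neurotransmitter carriers, had a promoter peak for 1 of its 21 coding genes, Slc6a6, and the sodium-glucose family SLC5 for 1 of 13. Of 373 RefSeq coding SLC genes, 293 had a peak of either mark and 80 had none, and families 32, 49 and 66 had no gene with a peak under those symbols. An Rpb2 promoter peak near another coding start site within 1000 bp, as for Slc16a6 with Arsg and Slc25a11 with Rnf167, was found for 17 genes, and its reads cannot be told apart between the neighbours.

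**Figure D2:**
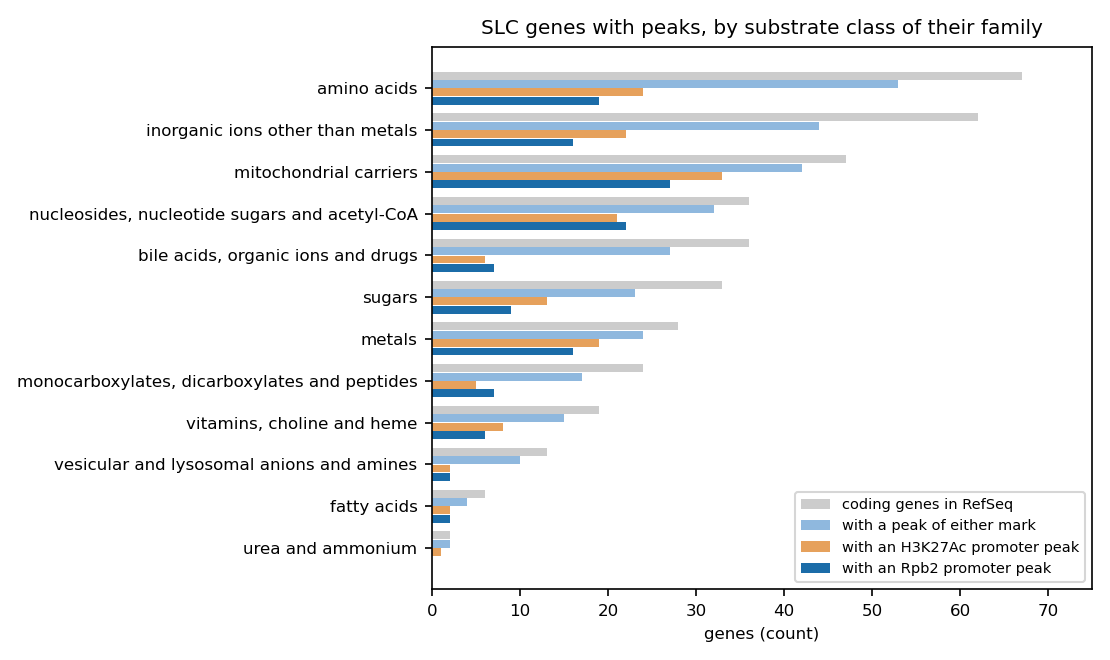
Number of SLC genes in each substrate class, as 4 bars: all RefSeq coding genes, those with a peak of either mark, those with an H3K27Ac promoter peak and those with an Rpb2 promoter peak. Mitochondrial carriers had 27 of 47 genes with an Rpb2 promoter peak and amino acid carriers 19 of 67.

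By the same rule of the peak centre, most of the highest H3K27Ac levels were found at other promoters than the highest Rpb2 levels. Slc15a3 and Slc29a2 were in both leading sets of 12. Slc43a2, the branched-chain amino acid carrier, had 30.5, 38.9, 40.6 and 39.1 CPM per kb of H3K27Ac, and Slc29a2 had 27.3, 33.9, 33.8 and 25.1. Slc35c2 had 22.7, 32.4, 27.4 and 30.4, and Slc15a3 had 22.2, 30.015, 29.9 and 32.04. The zinc importer Slc39a1 had 20.3, 28.2, 29.5 and 28.8, and Slc35e2 had 20.2, 26.1, 26.02 and 22.2. The WT female library, with its low share of reads in peaks, was the lowest pool in 5 of these 6 genes, and its part in the values was not tested. The GDP-fucose carrier Slc35c1, Slc30a7, Slc45a4, the zinc importer Slc39a8, Slc6a6 and the folate carrier Slc46a1 made up the other leading genes. Median WT H3K27Ac was 10.5 CPM per kb over the 156 SLC promoters and 10.99 over 9521 promoters of all genes, and 19 SLC genes (12.2%) were in the upper 10%. Across the 114 genes with both promoter peaks the marks correlated with a Spearman rho of 0.518, beside 0.505 over 6680 genes, where genes are not replicates and the libraries are shared.

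**Figure D3:**
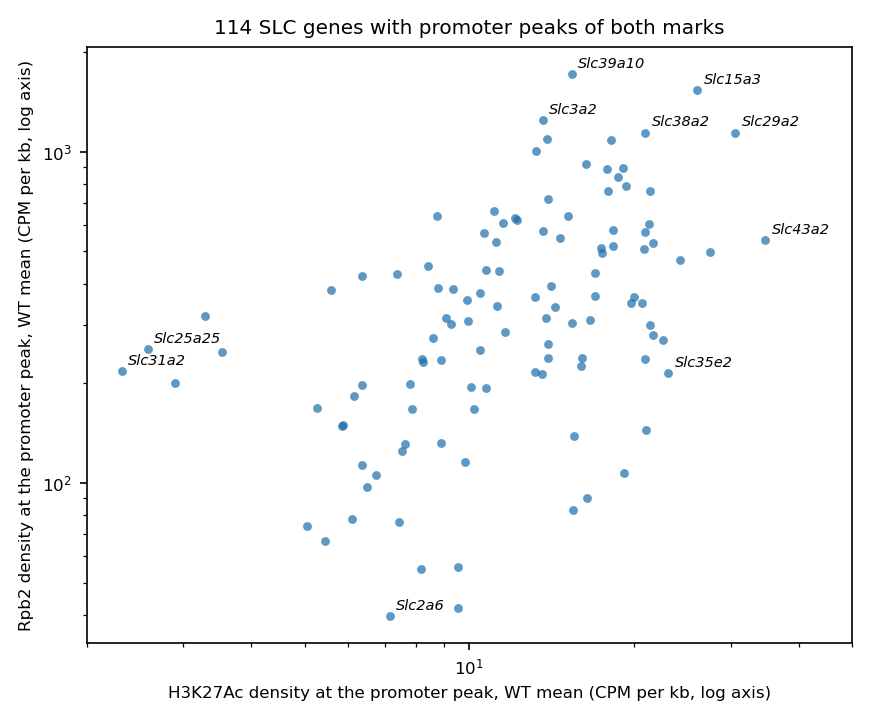
Rpb2 level (vertical axis) against H3K27Ac level (horizontal axis) at SLC promoters, both as mean WT CPM per kb on log axes, with 1 point for each of the 114 genes that have both promoter peaks. The points rise together with a rho of 0.518, and genes of similar H3K27Ac level differ widely in Rpb2.

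Some SLC genes lay in wide H3K27Ac domains. The widest was at Slc29a3, 21570 bp over the promoter and the gene body (chr10:60732670-60754239), with 422, 527, 488 and 498 CPM. Because its centre is far from the start site, it does not count as a promoter peak by the rule above. Slc15a4 (13413 bp), Slc7a8 (12472 bp) and Slc1a3 (12006 and 11709 bp) followed, each overlapping its own gene. Slc25a51, the mitochondrial NAD carrier (10180 bp), and Slc25a33, a mitochondrial pyrimidine nucleotide carrier (10143 bp), had wide peaks that were assigned to them from a distance, as the former lies inside Shb and the latter between genes. At Slc25a45, a domain of 9931 bp overlapped both Frmd8 and Slc25a45. The 8 widest domains had edgeR log2 fold changes from −0.14 to 0.25 between genotypes, and none passed the test.

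Many SLC peaks lay outside the gene they carry the name of. Of the Rpb2 SLC peaks 257 of 427 (60.2%) touched their own gene, and of the H3K27Ac peaks 564 of 962 (58.6%). Slc45a1 had the most H3K27Ac peaks, 40, of which 26 lay in Rere and none in Slc45a1 itself. Slc8a1, the sodium-calcium exchanger, had 24 with 22 in the gene, Slc16a7 had 15 with 10, Slc45a4 had 15 with 13, and Slc1a3 and Slc24a3 had 14 each with 9 and 12. For Rpb2, Slc25a33 had 19 peaks with 2 in the gene, and Slc29a3 had 17, all of them in the gene. Slc16a6 had 15 with 14 in the gene, Slc45a1 15 with none, Slc24a1 11 with 6 and Slc36a1 11 with 9. Of the Rpb2 peaks near SLC start sites, 172 of 174 (98.9%) lay in an H3K27Ac peak, against 98.2% over all genes. Of those farther away 161 of 253 did (63.6%), against 63.4%.

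Whether loss of Cx3cr1 moves polymerase at SLC genes was asked next. In pools of sorted cells, a change in the mix of cells and a change within each cell cannot be told apart. No SLC promoter passed the test: 0 of the 174 Rpb2 peaks within 1000 bp of a start site had an adjusted p under 0.05 (edgeR quasi-likelihood test, Benjamini-Hochberg), where 0% of all 10125 such peaks did. DESeq2 called 0 as well (0.198% of all), and the edgeR likelihood ratio test called 1, Slc36a1 (1.23% of all). At an unadjusted p under 0.05, 3 SLC peaks were higher in KO, where the share over all peaks was 4.42%, and 13 were lower, where it was 6.13%. With both pools of a genotype above both of the other, 30 were higher (21.7% of all peaks) and 34 lower (20.4%). The median log2 fold change was 0.02 for SLC peaks and 0.02 for all peaks, and 82 of 174 (47.1%) had the same direction under both sex labels, against 56.7% of all peaks. Scaling to the total reads of each library in place of TMM raised the median of all peaks to 0.22 and turned the split at an unadjusted p under 0.05 to 10 higher (7.74% of all) and 4 lower (2.64%).

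**Figure D4:**
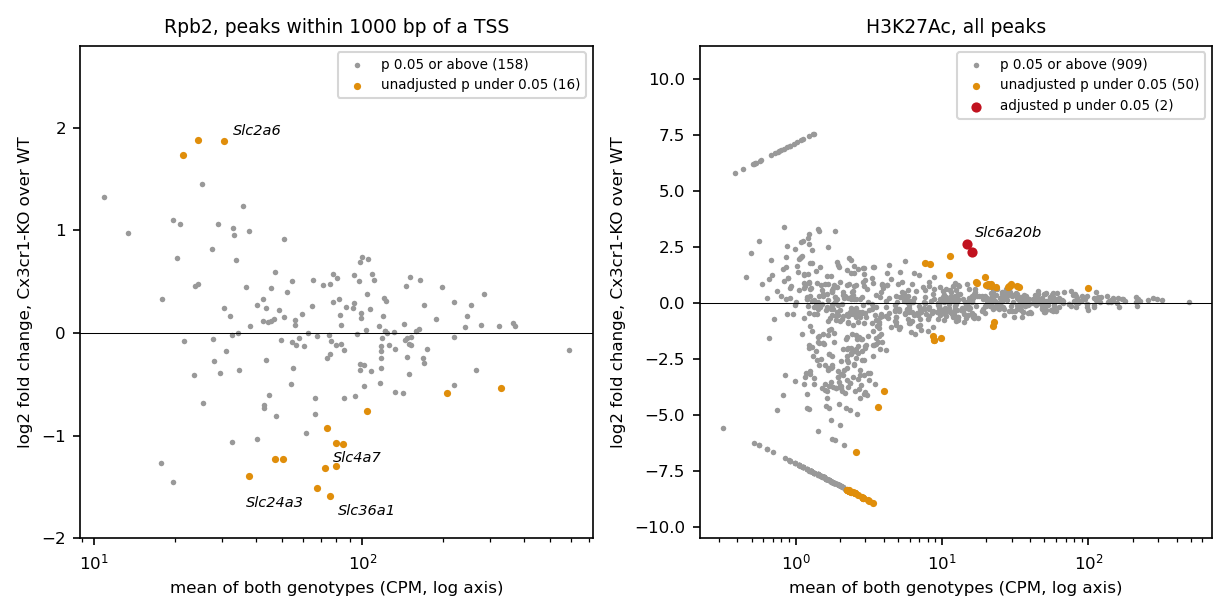
Log2 fold change KO over WT (edgeR) against mean CPM on a log axis for SLC peaks, with Rpb2 peaks near a start site in 1 panel and H3K27Ac peaks in the other, with unadjusted p under 0.05 and calls in colour. Straight diagonal lines are peaks with no reads in 1 genotype, whose fitted value is no measured fold. SLC points scatter around 0 for Rpb2, and the called H3K27Ac peaks of Slc6a20b lie at 2.65 and 2.29.

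Slc36a1, the proton-coupled amino acid carrier of the lysosome, had the lowest p of the SLC start-site peaks. Its reads were 88, 103, 128 and 46 in libraries of unlike depth, and its level was 436, 428, 161 and 124 CPM per kb (chr11:55204308-55204570, log2 fold change −1.59, SE 0.42, adjusted p 0.194). Both KO pools were thus far under both WT pools, but the difference did not pass the adjusted test. Over the 14 alternatives its log2 fold change stayed between −1.78 and −1.41, and the edgeR likelihood ratio test called it at adjusted p 0.0295. In the fit over all Rpb2 peaks the log2 fold change of this peak lay between −1.92 and −1.41 over the alternatives. There it was called by DESeq2 (adjusted p 0.00107), the likelihood ratio test and the quasi-likelihood method of edgeR version 4, but not by the main test. The sodium-bicarbonate cotransporter Slc4a7 (77, 98, 135 and 54 reads, log2 fold change −1.31, SE 0.42, adjusted p 0.267) also had both KO pools under both WT pools. So did Slc24a3, an exchanger of sodium for calcium and potassium (99, 66, 146 and 29 reads, −1.51, SE 0.50, adjusted p 0.27), which passed without the WT male pool, at adjusted p 0.0375. Slc25a25, which carries ATP-magnesium and phosphate, came to −1.08 on the log2 scale (SE 0.42, adjusted p 0.356), and the leading zinc importer Slc39a10 to −0.54 (SE 0.22, adjusted p 0.373).

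Of the peaks with more reads in KO, Slc2a6, the glucose carrier GLUT6, had 17, 4, 120 and 79 reads (chr2:27027901-27028235, log2 fold change 1.87, SE 0.74, adjusted p 0.367). Without the library labelled WT female it passed, at adjusted p 0.0208, and the WT pools differ between themselves. The copper carrier Slc31a2 had 12, 4, 98 and 47 reads in a peak 789 bp past an internal start site (chr4:62292159-62292513, 1.74, SE 0.79, adjusted p 0.44). The peak at its first start site (chr4:62286353-62286604) had 53, 37, 150 and 93 reads. At Slc38a2 a peak 689 bp upstream of the start site had 10, 7, 81 and 70 reads (chr15:96700296-96700539, 1.88, SE 0.75, adjusted p 0.371). An intron peak of the same gene had 78, 115, 160 and 55 (chr15:96698988-96699236, −1.30, SE 0.41, adjusted p 0.257). The Slc38a2 peaks, on either side of the printed window, thus had fold changes of opposite sign, and neither passed.

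Over all Rpb2 peaks, 0 of the 427 SLC peaks passed, where 0.00749% of 26706 did, and at an unadjusted p under 0.05 there were 25 higher (6.12% of all) and 26 lower (6.06%). The pools were apart with KO higher in 112 (25.7%) and KO lower in 87 (21.7%). DESeq2 called 13 SLC peaks, or 3.04% of SLC peaks where it called 3.83% of all. The 3 higher were at Slc44a4, Slc5a11 and Slc8a1. The 10 lower were at Slc15a4, Slc16a6, Slc24a3, Slc25a3, Slc29a4, Slc36a1, Slc38a2, Slc39a10, Slc4a7 and Slc7a8. Scaling to total reads gave 41 higher (11.1% of all) and 8 lower (2.05%) at an unadjusted p under 0.05. The count of calls rests on single libraries: it was 36 (8.43%) without the library labelled WT female and 26 (6.09%) without the WT male pool, where 8.28% and 7.35% of all peaks were called. It was 0 without either KO pool. A lone pool is assumed to vary like the other genotype. A peak assigned to the choline-like carrier Slc44a4, inside the histone methyltransferase gene Ehmt2, had 2, 2, 149 and 54 reads (log2 fold change 4.03, SE 0.87, adjusted p 0.198). At Slc8a1, a peak with 0 and 0 reads in WT had 67 and 27 in KO, at least 5.27-fold higher by a floor of 3 reads per library. Another Slc8a1 peak had 44, 54, 353 and 212 reads (1.07, SE 0.37). A pair of peaks assigned to Slc5a11, a sodium-coupled inositol carrier, lay outside the gene, with 4, 0, 115 and 43, and 3, 0, 62 and 47 reads. A peak between genes assigned to Slc15a4 had 37, 23, 7 and 5 reads (−3.77, SE 0.92), a Slc16a6 peak 32, 43, 28 and 4 (−2.92, SE 0.79), and a peak assigned to Slc29a4 inside Tnrc18 had 36, 31, 1 and 9 (−3.86, SE 1.10). None passed the adjusted edgeR quasi-likelihood test. A peak of the list of 1 genotype alone entered through that genotype, which favours its direction. Of SLC Rpb2 peaks of the KO list alone 23.4% were lower in KO, against 24.2% of all such peaks. Of those of the WT list alone 89.1% were, against 92.8%.

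The same question was asked of H3K27Ac. Of the 961 SLC peaks tested, 2 were called, both at Slc6a20b and both higher in KO, where 0.0233% of all 55798 peaks were called. At an unadjusted p under 0.05, 21 SLC peaks were higher (1.35% of all) and 31 lower (3.6%), and the pools were apart with KO higher in 151 (14.3%) and KO lower in 129 (13%). The median log2 fold change of SLC peaks was −0.21, and that of all peaks −0.21 as well. Among peaks found in both genotypes' lists the medians were 0.04 and 0.04. A peak of the list of 1 genotype alone entered through that genotype. Of SLC peaks of the WT list alone 100% were lower in KO, against 99.5% of all such peaks. Of those of the KO list alone 32.9% were, against 29.1%. Scaling to total reads moved the medians over peaks of any list to 0.52 and 0.53, with no SLC peak called. It gave 12 higher (1.07% of all) and 8 lower (1.12%) at an unadjusted p under 0.05. The library labelled WT female, which stands apart, gave reads in no other library for 125 of the 962 SLC peaks (12.99%), and 14.4% of all peaks. Without it 12 SLC peaks were called (1.25%, against 0.907% of all peaks), without the WT male pool 131 (13.6%, against 14.6%), and without either KO pool 0. The start-site peak of Mrc1, a marker of other brain macrophages, had both KO pools lower in H3K27Ac, while other peaks of that marker list went both ways. The part of such cells in these counts was not tested.

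Slc6a20b is a gene of the sodium- and chloride-coupled SLC6 family with a paralogue in Slc6a20a, and only uniquely mapped reads were counted. Its peak at chr9:123600664-123603190 had 21, 15, 277 and 367 reads, or 5.93, 2.40, 21.1 and 29.5 CPM (log2 fold change 2.65, SE 0.50, edgeR adjusted p 0.000626). The peak at chr9:123594216-123596328 had 32, 14, 287 and 383 reads, or 9.04, 2.24, 21.8 and 30.7 CPM (2.29, SE 0.46, adjusted p 0.00385). Both KO pools were above both WT pools in each, with log2 ratios of 1.79 and 1.25 between female pools and 3.50 and 3.65 between male pools. Both peaks came from the KO list alone. They thus entered through the genotype where they are high, which favours that direction. In the 13 alternatives that tested both, the fold changes lay between 1.54 and 3.69 on the log2 scale. Both peaks were called in 8 and neither in 5, which were scaling to total reads, the quasi-likelihood method of edgeR version 4, a minimum of 10 reads, and leaving out either KO pool. Without the WT female library the adjusted p was 1.76e-06 and 3.16e-07.

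**Figure D5:**
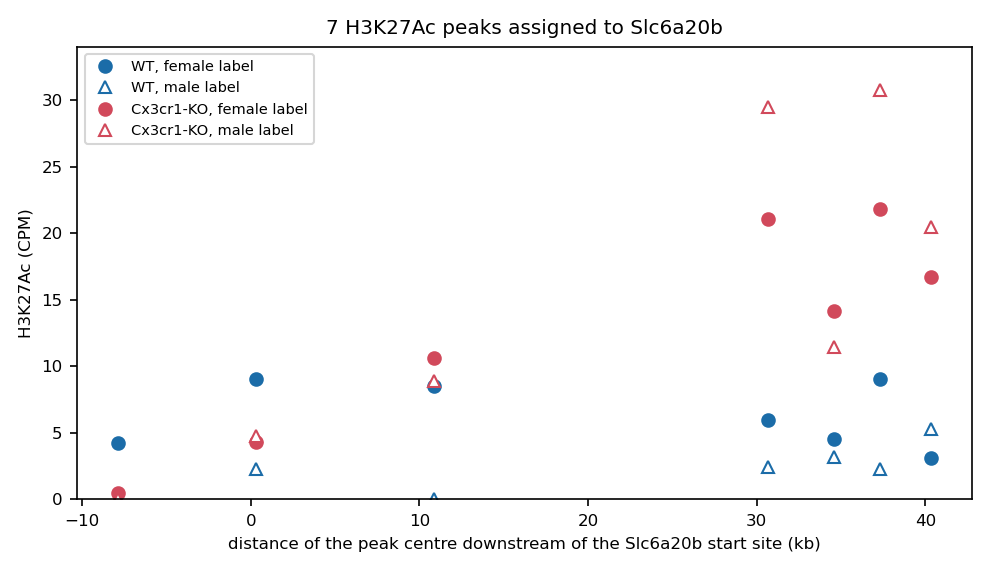
H3K27Ac in CPM at the 7 peaks assigned to Slc6a20b, by pool, against the distance of the peak from the start site in kb. Both KO pools lie above both WT pools in the called peaks, and the peak at the start site shows no such gap.

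The other Slc6a20b peaks give context, and all but the last named below also came from the KO list alone. The peak at the 3′ end, shared with Sacm1l, had 11, 33, 220 and 255 reads (2.12, adjusted p 0.42), and the peak between the called ones had 16, 20, 186 and 142 (1.74, adjusted p 0.811). A peak at chr9:123621095-123622293 had 30, 0, 140 and 111 reads, and the exon peak at the start site had 32, 14, 56 and 59 (−0.31). The seventh peak had 15, 0, 6 and 0. Rpb2 had no peak assigned to Slc6a20b. The gene lies 3.52 to 3.57 Mb from Cx3cr1 on the same chromosome, and the part of that linkage in these values was not tested. Within 10 Mb of Cx3cr1 stood 5 of the 13 called H3K27Ac peaks of all genes. That window held 484 tested H3K27Ac peaks, and 55314 lay elsewhere, 8 of them called. Of the Rpb2 peaks of all genes, 2 of 278 were called in that window and 0 of 26428 elsewhere. The window held 15 H3K27Ac SLC peaks of 5 genes. Of these, 4 had an unadjusted p under 0.05 with more signal in KO, all of them Slc6a20b peaks. Of all 484 H3K27Ac peaks in that window 11 were higher and 21 lower at that threshold, against 745 and 1987 of the 55314 elsewhere. The 300 bases at the centre of the first called peak (chr9:123601778-123602077, plus strand, mm10, counted from the left end of the window) held an AP-1 match at 106 to 112 and a pair of TATA-box letters, in capitals. The whole peak of 2527 bases held 1 AP-1 match, 3 TATA-box matches and none of the other searched motifs.
Slc6a20b H3K27Ac peak centre: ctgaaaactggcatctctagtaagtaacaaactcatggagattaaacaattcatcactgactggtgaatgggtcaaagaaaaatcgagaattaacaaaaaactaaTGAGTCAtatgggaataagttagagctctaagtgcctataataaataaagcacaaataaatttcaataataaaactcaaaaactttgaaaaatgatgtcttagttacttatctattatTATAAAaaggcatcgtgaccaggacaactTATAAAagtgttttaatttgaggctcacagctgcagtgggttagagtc

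No other H3K27Ac peak of an SLC gene passed. At the cystine and glutamate exchanger Slc7a11, a peak at chr3:50437411-50439774 had 39, 81, 429 and 269 reads (log2 fold change 1.17, SE 0.40, adjusted p 0.768), and the promoter of Slc7a6, a light chain of CD98, had 70, 138, 597 and 390 (0.87, SE 0.33, adjusted p 0.811). Both had KO pools above WT pools. Intron and intergenic peaks assigned to the aspartate-glutamate carrier Slc25a12 (26, 34, 0 and 0 reads) and to Slc6a15, a neutral amino acid carrier (27, 25, 0 and 0 reads), were at least 27.3-fold and 24.8-fold lower in KO by a floor of 3 reads per library. Their adjusted p was 0.768 and 0.811 by edgeR, and DESeq2 called both. Neither peak was in both genotypes' lists, and each passed the count filter through WT alone. They thus entered through the genotype where they are high, which favours that direction. Slc5a10 (93, 207, 170 and 202 reads, −1.03, SE 0.37), Slc7a10 (44, 106, 85 and 46, −1.53, SE 0.59), Slc17a4 (53, 74, 84 and 25, −1.67, SE 0.65) and the scaffold gene Slc9a3r2 (72, 40, 54 and 53, −1.66, SE 0.65) had both KO pools under both WT pools in CPM and did not pass.

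Related genes outside the symbol rule were counted in the same fits. Of 26 genes of the superfamily whose symbols do not start with Slc and a number, 18 had 25 Rpb2 peaks near a start site, with 0 called. At an unadjusted edgeR p under 0.05, 1 was higher (4.42% of all such peaks) and 1 lower (6.13%). The higher was a peak 914 bp upstream of Slco4a1, a carrier of organic anions (1, 0, 52 and 26 reads, log2 fold change 4.71, adjusted p 0.218). The Slco4a1 peak 117 bp past the start site had 100, 44, 523 and 124 reads (0.57). The lower was at the start site of Mfsd12, a lysosomal cysteine carrier (58, 148, 116 and 58 reads, −1.58, adjusted p 0.208). Another Mfsd12 peak, 874 bp upstream, had 30, 57, 205 and 68 reads (0.20). Of 14 genes for regulators of transporters, 12 had 19 such peaks, with 0 called and 1 lower at that threshold (6.13% of all such peaks). It was at Tfeb, the master regulator of lysosomal genes (45, 123, 54 and 37 reads, −2.15, SE 0.53, adjusted p 0.146). Atf4, which drives amino acid carriers under starvation, had a pair of peaks at −0.15 and 0.51 on the log2 scale, and Nfe2l2, the regulator of the oxidant response, had 3 peaks at 0.73, 0.31 and 0.0036. For H3K27Ac, 0 of 80 peaks of the superfamily list and 0 of 103 of the regulators were called, where 0.0233% of all peaks were.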

How the data were processed

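ChIP-seq libraries of microglia from WT and Cx3cr1-KO mice were used, 2 pools per genotype and mark. Per the labels and the study's methods, the authors used Bowtie 2 to map single-end reads to mm10, retained unique hits, called peaks with HOMER, kept peaks that passed the irreproducible discovery rate between pools, and merged the WT and KO lists. The deposited tables hold raw read counts per merged peak, with a normalization factor of 1. Of the H3K27Ac rows, 14.4% had reads in the WT female library alone, so a row need not have been found in both pools of a genotype. The number of unused columns of per-sample values was 0. A peak carries the gene of the nearest start site, so names are assignments.

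Counts were fitted with edgeR 4.0.16 in R 4.3.3 (quasi-likelihood test, TMM, genotype as the only term, Benjamini-Hochberg adjustment over all tested peaks) among peaks that averaged 4 reads or more in either genotype, in 3 fits: Rpb2 within 1000 bp of a start site, Rpb2 over all peaks and H3K27Ac over all peaks. A call is an adjusted p under 0.05. Log2 ratios within a sex label used a prior count of 2. The p-values weigh the genotype difference against the spread between pools, estimated with information shared over all peaks. The 2 pools of a genotype also differ in labelled sex, so that spread is not of replicates alone. The p of an exact permutation test of 2 against 2 cannot go below 0.333. With 10395804 to 44332626 reads per library, peaks with few reads have wide counting error, and levels are CPM per kb of peak width computed from the counts. The scripts were tested on simulated data. The simulated counts had less spread than the pools, whose common dispersion in edgeR was 1.28 for H3K27Ac and 0.0894 for Rpb2 near start sites. They do not measure how the tests perform at the spread of these pools.

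The members and lists were chosen with earlier results of these data known. Named genes are the 12 with the most WT Rpb2 and the 12 with the most WT H3K27Ac at the promoter, called peaks, the 6 higher and 6 lower peaks of each fit with the lowest p whose pools do not overlap, the top gene of each family with 3 or more Rpb2 promoters, the 8 widest H3K27Ac peaks, a fixed set of 18 genes, and the 6 genes with the most peaks of each mark. Slco4a1, Mfsd12, Tfeb, Atf4 and Nfe2l2 come from the related lists and were picked after their values were seen. A gene that the rule names is not reported here. Alternatives were other scalings (DESeq2 1.42.0 size factors, total reads, limma 3.58.1 loess offsets), other tests, other count filters, peaks of both lists, the sex label as a block, and leaving out each pool. The F and M columns were not treated as pairs, because the pools are different animals; the correlation of their deviations from the group means was 0.00153, −0.00715 and 0.00147 in the 3 fits.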

Additional observations from a re-analysis of the deposited data

Results flagged for a closer look

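In 5 SLC promoter peaks the log2 ratio of KO over WT had opposite signs under the female and the male label, by at least 0.5 each; with 1 pool per genotype and sex this difference was not tested. For Rpb2 the female and male ratios were 0.58 and −0.86 at Slc10a3, 0.95 and −1.49 at Slc12a2, and 0.62 and −0.74 at Slc25a12. For H3K27Ac they were 0.77 and −0.53 at Slc25a30 and −1.05 and 1.01 at the start site of Slc6a20b. The Rpb2 library labelled WT female holds Y-linked reads, and the H3K27Ac WT female library has a low share of reads in peaks, and their part in these ratios was not tested. Groups of 2 pools are too small to look for a pool far from the others.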

How the results depend on the processing

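The number of called SLC peaks depended on the test and on single pools. For Rpb2 near start sites it was 0 in the main test and 1 with the edgeR likelihood ratio test, and for all Rpb2 peaks it was 13 with DESeq2, 11 with the likelihood ratio test and 5 with the quasi-likelihood method of edgeR version 4 (3.04%, 2.58% and 1.17% of SLC peaks, against 3.83%, 3.46% and 1.02% of all peaks). For H3K27Ac it was 5 with DESeq2 (0.52%, against 0.43% of all), and 0 with scaling to total reads, with the edgeR version 4 method, with at least 10 reads in every sample, and with peaks of both lists only, where the Slc6a20b peaks are not tested because they belong to the KO list. Leaving out 1 pool at a time gave 0 to 1, 0 to 36 and 0 to 131 calls in the 3 fits, at most 0.575%, 8.43% and 13.6% of SLC peaks where 2.34%, 8.28% and 14.6% of all peaks were called; the lone pool is then assumed to vary like the other genotype, and a call was made only when a WT pool was left out. The sex label as a replicate block gave 0, 0 and 2 calls and medians of 0.049, 0.08 and −0.14; the pools share only a label and are not pairs, and it changed no count of calls. The median log2 fold change of SLC peaks near start sites was 0.22 with total reads, 0.039 with loess offsets, 0.050 with peaks of both lists, and −0.019 to 0.060 without 1 pool. For all Rpb2 peaks it was 0.39 with total reads. For H3K27Ac it was 0.52 with total reads, and −0.34 to 0.0095 without 1 pool. Of the 12 leading H3K27Ac genes, 6 stayed without division by peak width, 7 with peaks that cover the start site (an alternative chosen after seeing the data), and 5 to 8 without 1 pool. Of 429 values of single named peaks and alternatives, 367 kept their side of the threshold, 52 passed it, 10 lost it and 0 changed direction. These named peaks were picked for a call, or for a low p with pools that do not overlap between genotypes. The lack of a change in direction largely follows from that choice and is no sign of robustness. Apart from construction, the cause of the shifts above was not tested. The low share of reads in peaks of the H3K27Ac WT female library and the small counts of many peaks limit what these pools can show.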
